A study of Mus musculus with 15 samples.

Results

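The 9 genes described here encode cytokines and growth factors of group 2 innate lymphoid cells (ILC2s). They are the type 2 cytokine genes *Il4*, *Il5*, *Il13* and *Il9*, the growth factor genes *Csf2* (GM-CSF) and *Areg* (amphiregulin), and the cytokine genes *Il6*, *Il2* and *Il10*. They were found by gene symbol among the 24089 symbols counted in each library, and each of the 9 had a row of its own that no other gene shared.

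ILC2s are tissue lymphocytes that lack antigen receptors. They respond to signals from epithelium and nerves, among them IL-33, which binds the receptor ST2 (*Il1rl1*), and IL-25, TSLP and neuromedin U. They answer with IL-5, which sustains eosinophils, IL-13, which acts on epithelium, mucus cells and smooth muscle, and GM-CSF and amphiregulin, which act on myeloid cells and on tissue repair. *Il4*, *Il13* and *Il5* lie in the type 2 cytokine locus, with *Rad50* between *Il13* and *Il5*, and *Csf2* lies farther along the same chromosome. TGF-β signals through the receptor chain TβR2 (*Tgfbr2*) to SMAD proteins. BM ILC2p are the progenitors of ILC2s in bone marrow (BM).

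Bulk RNA-seq was done on total RNA of sorted cells from mice of the C57BL/6 strain. LP ILC2s (CD45+Lin-CD127+Sca-1+CD25+KLRG1+) were sorted from the lamina propria (LP) of 8 to 12 week old Tgfbr2f/fER-Cre+ mice, which had received tamoxifen (1 mg per day for 5 days, Tgfbr2-/-) or sunflower oil (WT), and were taken 1 day after the last dose. ILC2p (CD45.2+Lin-CD127+α4β7+CD25+) were sorted from the marrow of mixed chimeras 6 weeks after transfer. In these chimeras, marrow of tamoxifen- or oil-treated Tgfbr2f/fER-Cre+ donors had been mixed with CD45.1 marrow and given to irradiated CD45.1 hosts. All donors, WT included, carried the floxed *Tgfbr2* alleles and the inducible Cre, which is not limited to ILC2s, and deletion in other cells of the LP mice was not measured here. Only the Tgfbr2-/- mice and donors had tamoxifen, so tamoxifen, Cre activity and loss of *Tgfbr2* cannot be told apart. Each cell type was sequenced in 2 experiments. Experiment 1 on ILC2s gave 2 libraries of each genotype, and experiment 2 gave 2 of WT and 1 of Tgfbr2-/- cells, and ILC2p gave 2 WT and 2 Tgfbr2-/- libraries in each. The labels of 1 library give differing library codes, so its assignment is less certain than that of the others. The number of mice behind a library is not given in the sources used here, so p-values measure the spread between these libraries. Whether same-numbered libraries of the 2 experiments share a source was not tested.

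The genes' counts summed to between 12167066 and 32114265 in the 7 ILC2 libraries (median 20983448) and between 10957021 and 35961215 in the 8 ILC2p libraries (median 20102800.5). Of 12 ILC2 markers, 11 were at 1 CPM (counts scaled to the size of the library) or more in every ILC2 library, with a summed level of 7407 to 10320 CPM and *Gata3* at the top. *Ptgdr2*, the marker left over, had no read in 6 of the 7 ILC2 libraries. The ILC2p libraries were less even. Of the genes whose median over the other libraries of the cell type was 50 CPM or more, between 1.64% and 13.7% were under 1 CPM in an ILC2p library, against at most 0.0275% for ILC2s. More than 8% were missing from 4 ILC2p libraries, which are WT replicate 1 of experiment 1, both Tgfbr2-/- libraries of experiment 1 and Tgfbr2-/- replicate 2 of experiment 2, so a cytokine gene at 0 in those libraries was not detected there, which does not show that it was absent. *Tgfbr2* was at 209.1 ± 51.13 CPM in WT (SD, n = 4) and 168.7 ± 59.35 CPM in Tgfbr2-/- ILC2s (SD, n = 3), with overlapping libraries, and at 0.6892 to 223.2 CPM in WT and 28.73 to 194.9 CPM in Tgfbr2-/- ILC2p. Its count covers the whole transcript, so it does not show whether the floxed part was deleted, and the genotypes are those of the labels.

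The promoters of 5 of the genes are printed because these genes carry most of the counts or separate the genotypes below. Each is the 250 bases before the RefSeq transcription start (GRCm38.p6), 5′ to 3′ on the strand of the gene. *Il5* is at chr11:53720544-53720793 on the plus strand, *Il13* at chr11:53634703-53634952 on the minus strand, *Il4* at chr11:53618666-53618915 on the minus strand (the upstream of its 2 RefSeq starts), *Csf2* at chr11:54249900-54250149 on the minus strand and *Areg* at chr5:91139349-91139598 on the plus strand. Capitals mark matches, on either strand, of the letters AGATAA or TGATAA (bound by GATA factors), TGANTCA (AP-1), GGAAA (the core of NFAT sites), CAGAC (SMAD proteins) and TGACGTCA (the cyclic AMP response element), and no match overlaps another.
Il5: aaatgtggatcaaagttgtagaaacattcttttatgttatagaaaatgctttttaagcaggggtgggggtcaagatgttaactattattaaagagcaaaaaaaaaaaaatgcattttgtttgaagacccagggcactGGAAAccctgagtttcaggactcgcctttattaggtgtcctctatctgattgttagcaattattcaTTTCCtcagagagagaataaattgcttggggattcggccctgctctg
Il13: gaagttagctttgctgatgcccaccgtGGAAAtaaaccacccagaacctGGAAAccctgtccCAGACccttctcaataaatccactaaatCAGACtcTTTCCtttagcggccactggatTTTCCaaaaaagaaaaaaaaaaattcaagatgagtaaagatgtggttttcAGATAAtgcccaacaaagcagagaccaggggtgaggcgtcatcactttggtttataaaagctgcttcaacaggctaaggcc
Il4: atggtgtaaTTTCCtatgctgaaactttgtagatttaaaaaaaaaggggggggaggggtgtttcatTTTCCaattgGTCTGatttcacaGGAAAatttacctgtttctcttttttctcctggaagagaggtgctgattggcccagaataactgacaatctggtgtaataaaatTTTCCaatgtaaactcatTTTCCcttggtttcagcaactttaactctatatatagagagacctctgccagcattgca
Csf2: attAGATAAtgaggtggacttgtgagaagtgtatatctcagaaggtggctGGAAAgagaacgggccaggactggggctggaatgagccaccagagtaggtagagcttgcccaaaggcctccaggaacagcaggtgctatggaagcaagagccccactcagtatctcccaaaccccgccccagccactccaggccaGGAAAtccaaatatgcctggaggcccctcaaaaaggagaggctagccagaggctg
Areg: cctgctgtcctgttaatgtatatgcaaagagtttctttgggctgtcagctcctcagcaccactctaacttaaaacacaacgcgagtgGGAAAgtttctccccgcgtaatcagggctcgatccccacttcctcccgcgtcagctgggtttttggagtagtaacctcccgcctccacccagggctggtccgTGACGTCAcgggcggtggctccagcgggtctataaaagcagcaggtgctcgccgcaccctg

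The *Il13* window held AGATAA 81 bases before the start, 4 matches of GGAAA and 2 of CAGAC. The *Csf2* window held AGATAA 247 bases before the start and 2 matches of GGAAA, and the *Il5* window held 2 matches of GGAAA and none of the other letters. The printed *Il4* window held 5 matches of GGAAA and 1 of CAGAC, while the window of the other *Il4* start (chr11:53617339-53617588) held 0 of GGAAA and 1 of CAGAC. In the *Areg* window a match of TGACGTCA lay 61 bases before the start, beside 1 match of GGAAA. Among 32851 promoter windows of the same length, 9.99% held AGATAA, 7.94% TGATAA, 6.75% TGANTCA, 55.6% GGAAA, 42.2% CAGAC and 1.55% TGACGTCA. A match is only a run of letters, and binding was not measured here.

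In LP ILC2s the 9 genes spanned from among the most abundant transcripts to a few reads. The order is given in RPKM, reads per unit of transcript length and of library size, since genes of different length cannot be compared in CPM. *Csf2* was highest, at 332.4 to 884.0 RPKM with a median of 690.9, and ranked between 64 and 241 among all genes of a library. *Il4* followed at 283.3 to 439.5 RPKM (median 394.8) and *Areg* at 193.6 to 357.8 RPKM (median 253.4). *Csf2* was above *Il4* in 6 of 7 libraries, with overlapping ranges, and *Il4* was above *Areg* in 7 of 7. *Il5*, at 30.42 to 167.5 RPKM (median 60.52), lay under *Areg* in 7 of 7 libraries, and the ranges of the pair did not overlap. The next genes were *Il2* at 21.47 to 40.29 RPKM (median 25.54), *Il13* at 10.36 to 36.46 RPKM (median 20.45) and *Il6* at 6.28 to 25.37 RPKM (median 12.48). *Il2* was above *Il13* in 5 of 7 libraries and *Il13* above *Il6* in 6 of 7, so the neighbours in this stretch of the order were not separated by their spread. *Il9* and *Il10* were the lowest, with medians of 0.2706 and 0.5206 RPKM, and each had more than 3 counts in 4 of 7 libraries.

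**Figure D1:**
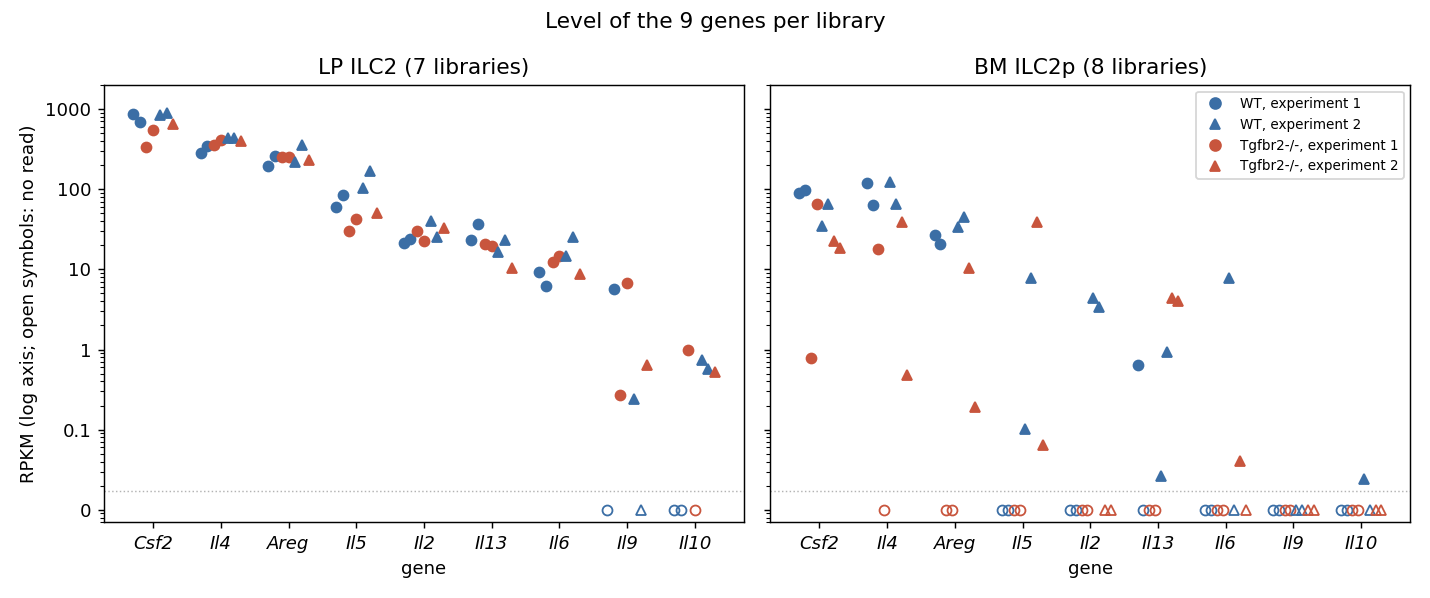
Level of the 9 genes in RPKM (log axis) in each LP ILC2 library (left) and each BM ILC2p library (right), with 1 symbol for a library, coloured by genotype and shaped by experiment, and open symbols on the bottom line for no read. In ILC2s *Csf2*, *Il4* and *Areg* lie above 190 RPKM in every library, while in ILC2p the same genes reach 124.5 RPKM at most and several genes have no read in most libraries.

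The amount of each gene varied to different degrees among the ILC2 libraries. *Il4* was the steadiest, with a coefficient of variation of 8.573% in CPM over the 7 libraries, followed by *Areg* at 16.73% and *Il2* at 18.84%. *Csf2* varied by 31.21%, *Il13* by 42.07%, *Il6* by 42.83% and *Il5* by 55.97%. These values pool the genotypes. Among the 4 WT libraries alone the order was different, with *Il4* at 9.361%, *Csf2* at 13.58%, *Areg* at 21.16%, *Il2* at 23.82%, *Il5* at 35.57%, *Il13* at 38.5% and *Il6* at 52.09%. Summed over the 9 genes, the level was 918.1 to 1735 CPM (median 1473), of which *Csf2* made up 34.48% to 60.77%. *Il9* was uneven among libraries of a group. Its counts were 0 and 60 in the WT and 4 and 112 in the Tgfbr2-/- libraries of experiment 1, and 2 and 0 in the WT libraries and 4 in the Tgfbr2-/- library of experiment 2. *Il10*, the gene of a cytokine that restrains inflammation, reached 36 counts in Tgfbr2-/- replicate 1 of experiment 1 and 15 counts or fewer in each of the other libraries.

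The first comparison sets Tgfbr2-/- against WT LP ILC2s. *Il5*, *Il13* and *Csf2* were lower in each Tgfbr2-/- library than in any WT library of the same experiment, whereas *Areg* and *Il2* overlapped between the genotypes in both experiments, *Il4* overlapped in experiment 1, and *Il6* was higher in Tgfbr2-/- libraries of experiment 1 and lower in that of experiment 2. No gene of the genome passed the threshold, so none of the 9 did. The threshold was a Benjamini-Hochberg adjusted p under 0.1 in the quasi-likelihood test of edgeR together with a fold change over 1.5, with the experiment as a covariate. By it 0 of 11981 tested genes were called (0.0%), while 557 (4.65%) had an unadjusted p under 0.05, and DESeq2 called 953 of 17013 genes (5.6%). Of the 9 genes 8 passed the filter on low counts, and *Il9* did not. In bulk RNA, fewer producing cells and less RNA in each cell cannot be told apart.

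*Il5*, the eosinophil factor, stood at 103.1 and 130.3 CPM in both WT libraries and 43.03 and 65.35 in the Tgfbr2-/- libraries of experiment 1. In experiment 2 it stood at 141.3 and 226.9 CPM in WT and 68.86 in Tgfbr2-/-. All 3 Tgfbr2-/- libraries were therefore below all 4 WT libraries, across the experiments as well as within them. The Tgfbr2-/- mean was 0.464 of the WT mean in experiment 1 and 0.374 of it in experiment 2. The log2 fold change was -1.23 (SE 0.27, adjusted p = 0.877 by edgeR), *Il5* ranked 16 by p-value among the genes tested, and the fold change stayed between -1.43 and -1.06 when any 1 library was left out. DESeq2, the alternative count model, called *Il5* (adjusted p = 0.00139).

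*Csf2*, which encodes a growth factor for macrophages, granulocytes and dendritic cells, stood at 984.5 and 722.5 CPM in WT and 316.5 and 558.6 in Tgfbr2-/- ILC2s of experiment 1. In experiment 2 it stood at 787.5 and 806.7 CPM in WT and 612.1 in Tgfbr2-/- ILC2s. The genotypes did not overlap, but the Tgfbr2-/- mean was 0.513 of the WT mean in experiment 1 and 0.768 in experiment 2. The log2 fold change was -0.73 (SE 0.24, adjusted p = 0.898 by edgeR), and DESeq2 called it (adjusted p = 0.0956).

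*Il13*, which drives mucus and epithelial responses, had lower counts. It stood at 31.38 and 44.51 CPM in WT and 22.73 and 23.45 in Tgfbr2-/- ILC2s of experiment 1, and at 17.84 and 24.58 CPM in WT and 11.25 in Tgfbr2-/- ILC2s of experiment 2. Within each experiment the genotypes were apart, but WT replicate 1 of experiment 2 was under both Tgfbr2-/- libraries of experiment 1. The Tgfbr2-/- mean was 0.609 of the WT mean in experiment 1 and 0.53 in experiment 2, and the log2 fold change was -0.79 (SE 0.43, adjusted p = 0.898 by edgeR). DESeq2 did not call *Il13* (adjusted p = 0.257). For each of *Il5*, *Csf2* and *Il13* the exact permutation of genotype within experiments gave p = 0.0556 (two-sided), which is the smallest value that the 18 arrangements allow. Among all genes tested, 5.82% were lower in each Tgfbr2-/- library than in any WT library of the experiment.

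*Il4* was not lower in both experiments. It stood at 209.6 and 230.2 CPM in WT and 215.6 and 258.7 in Tgfbr2-/- ILC2s of experiment 1, and at 258.9 and 251.5 CPM in WT and 229.8 in Tgfbr2-/- ILC2s of experiment 2, where the Tgfbr2-/- library was under both WT libraries. The group means were 237.6 ± 22.24 CPM in WT (SD, n = 4) and 234.7 ± 21.97 CPM in Tgfbr2-/- ILC2s (SD, n = 3), with a log2 fold change of 0.01 (SE 0.16, adjusted p = 0.996 by edgeR). *Il4* lies 12.7 kb from *Il13* in the same locus, and *Il5* lies 86.1 kb beyond *Il13* (NCBIM37, chromosome 11).

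*Areg*, the EGF receptor ligand linked with tissue repair, stood at 257.7 and 312.9 CPM in WT and 280.1 and 302.8 in Tgfbr2-/- ILC2s of experiment 1. In experiment 2 it stood at 239.2 and 379.0 CPM in WT and 249.0 in Tgfbr2-/- ILC2s. Its groups overlapped in both experiments, with a log2 fold change of -0.10 (SE 0.21, adjusted p = 0.971 by edgeR). *Il2*, a growth factor of lymphocytes, was at 25.22 ± 6.008 CPM in WT (SD, n = 4) and 25.08 ± 3.644 CPM in Tgfbr2-/- ILC2s (SD, n = 3), with a log2 fold change of 0.04 (SE 0.43). *Il6*, a cytokine of the acute phase and of B and T cell help, was at 14.24 ± 7.42 CPM in WT (SD, n = 4) and 12.25 ± 3.561 CPM in Tgfbr2-/- ILC2s (SD, n = 3), and the direction differed between the experiments, with a Tgfbr2-/- mean of 1.55 times the WT mean in experiment 1 and 0.442 of it in experiment 2. *Il10* had a fitted log2 fold change of 3.61 with an SE of 2.78 and rests on at most 36 counts.

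**Figure D2:**
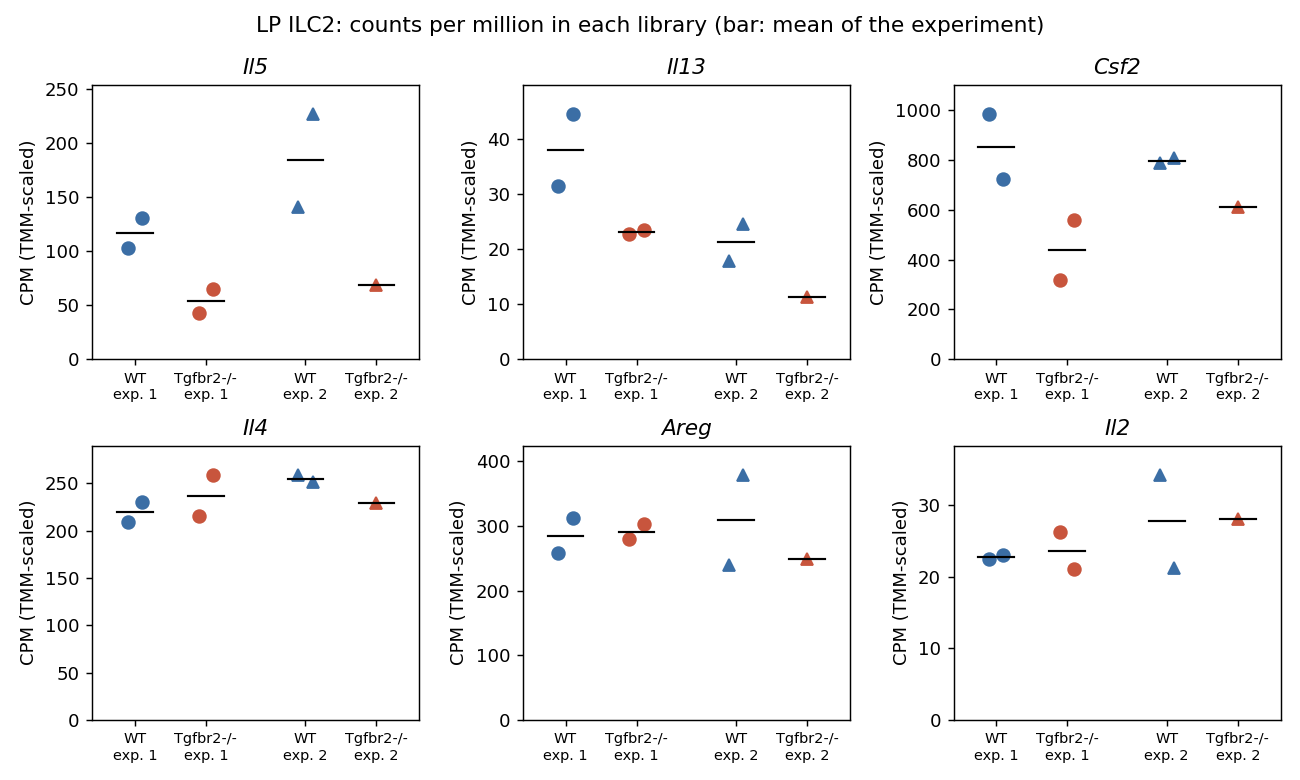
CPM of *Il5*, *Il13*, *Csf2*, *Il4*, *Areg* and *Il2* in each LP ILC2 library, by genotype and experiment, with symbols for libraries and bars for the mean of a genotype in an experiment. In the *Il5*, *Il13* and *Csf2* panels the Tgfbr2-/- libraries lie under the WT libraries of their experiment, in the *Il4* panel they do so in experiment 2 alone, and in the *Areg* and *Il2* panels in neither.

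The other genes of cytokine control were examined from lists of receptors, transcription factors and RNA regulators, of which 0 genes passed the threshold in LP ILC2s. Of 13 tested receptors that drive ILC2 cytokine output, 3 were lower in each Tgfbr2-/- library than in any WT library of the experiment and 0 higher, against 5.82% lower and 6.79% higher among all genes. They were *Il1rl1* (ST2), with a log2 fold change of -1.44 (SE 0.32), *Nmur1*, the neuromedin U receptor, at -0.70 (SE 0.23), and *Cysltr1*, a leukotriene receptor, at -0.53 (SE 0.22). *Il17rb*, the IL-25 receptor chain, differed by 0.13, *Il7r* by 0.07 and *Tnfrsf18* (GITR) by 0.43. The median over the 13 receptors was 0.02, against -0.01 for all genes. Of 17 transcription factors, *Gata3*, the factor that ILC2s depend on, was at -0.26 (SE 0.15) and *Batf*, an AP-1 factor, at -0.46 (SE 0.19), and both were lower without overlap. *Junb* (-0.09), *Fos* (-0.11) and *Rora* (-0.01) were not separated in 1 direction in both experiments, and the median of the list was -0.09.

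Among 10 tested receptors for the cytokines themselves, *Il9r* was at 224.2 CPM in WT and 138.0 in Tgfbr2-/- ILC2s, with a log2 fold change of -0.82 (SE 0.23), and *Csf2ra*, the GM-CSF receptor chain, was at 35.59 and 16.15 CPM, a log2 fold change of -1.18 (SE 0.42). Both were lower without overlap in both experiments. The IL-2 receptor chains *Il2rg* (0.12), *Il2rb* (0.46) and *Il2ra* (0.09) were not separated in this way. Of 10 regulators of cytokine mRNA decay, *Zfp36l1* was lower without overlap (log2 fold change -0.30, SE 0.12) and *Zfp36* (tristetraprolin) was at -0.28 (SE 0.14), lower without overlap in experiment 1 alone. Of 6 tested neighbours of the type 2 locus, *P4ha2*, which encodes a collagen-modifying enzyme, was lower without overlap (-0.91, SE 0.39), while *Rad50*, which lies 14.8 kb from *Il13*, was at -0.25 (SE 0.25) and *Irf1* at -0.29 (SE 0.18). None of 19 other lymphocyte cytokine genes was separated in either direction, among them *Ltb* (0.59), *Calca* (0.51), *Lif* (0.13) and *Tnfsf11* (-0.11).

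**Figure D3:**
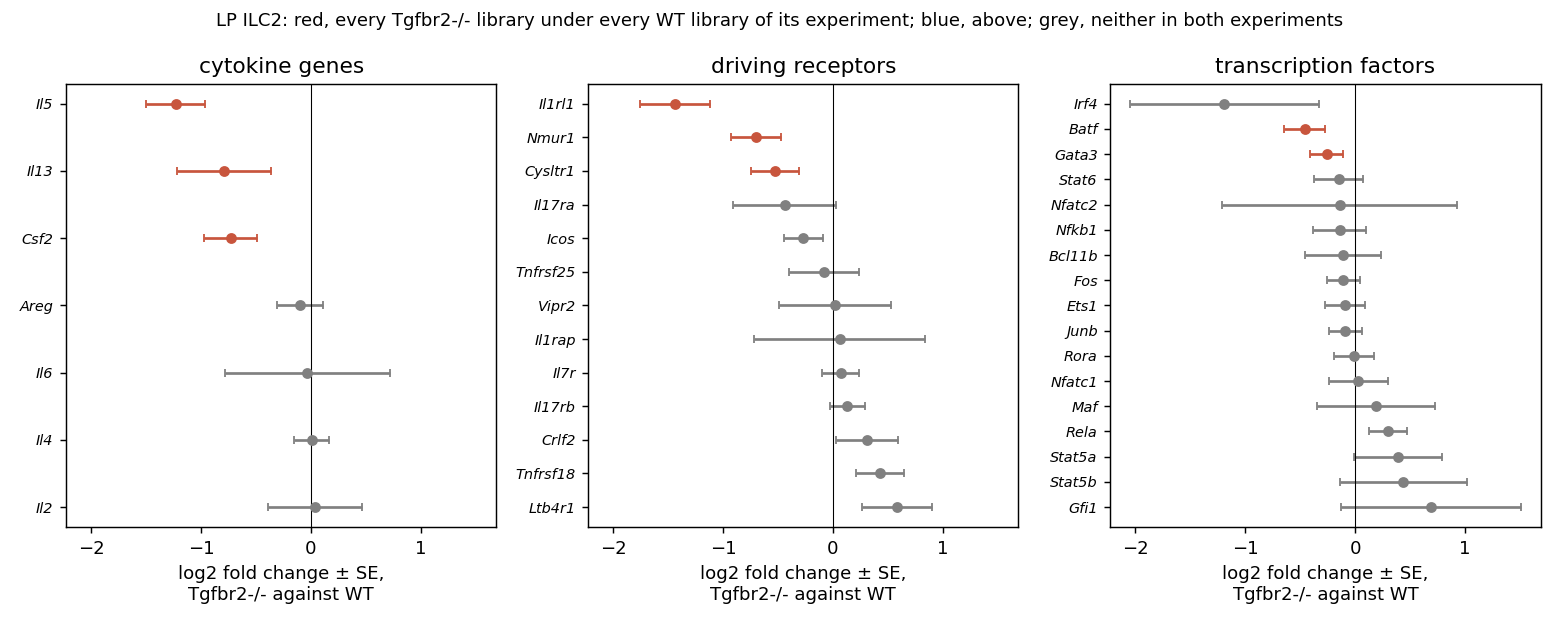
Log2 fold change of Tgfbr2-/- against WT LP ILC2s with its SE (edgeR) for the cytokine genes, the receptors that drive cytokine output and the transcription factors, with a point for each tested gene except *Il10*, whose SE is 2.78. Red points mark genes whose Tgfbr2-/- libraries all lie under the WT libraries of their experiment, among them *Il5*, *Il13*, *Csf2*, *Il1rl1*, *Nmur1* and *Gata3*, and grey points mark genes not separated in 1 direction in both experiments.

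Markers of other cells were present in the ILC2 libraries. None of those tested was called between the genotypes (adjusted p of 0.877 or more by edgeR), and only epithelial genes were called between the experiments. The summed level of 12 epithelial markers was 7.536 and 16.87 CPM in WT and 46.24 and 47.1 in Tgfbr2-/- ILC2s of experiment 1, and 117.9 and 533.9 CPM in WT and 1615 in Tgfbr2-/- ILC2s of experiment 2, where *Krt8* was the most abundant at 607.0 CPM. Of 8 B and plasma cell markers the sum was 519.6 and 455.7 CPM in WT and 83.35 and 103.1 in Tgfbr2-/- ILC2s of experiment 1, and 133.1, 269.9 and 124.9 CPM in the 2 WT libraries and the Tgfbr2-/- library of experiment 2. *Igj*, the joining chain of secreted antibodies, made up most of it in the WT libraries of experiment 1 (428.4 and 391.2 CPM), and *Pax5* had no read in any ILC2 library. Of 10 T cell markers *Lat*, which ILC2s also express, led in every library, *Cd8a* had no read in any, and the summed level was 379.7 to 602.1 CPM. Mast cell and basophil markers summed to 3.41 to 31.9 CPM, macrophage and neutrophil markers to 0.05162 to 96.15 CPM, and eosinophil markers to at most 0.7651 CPM. The part of the epithelial and plasma cell transcripts in the levels of *Il5*, *Il13* and *Csf2* was not tested.

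Between the experiments, *Il13* was lower in experiment 2 by a log2 fold change of -0.92 (SE 0.43, adjusted p = 0.415 by edgeR) and *Il5* was at 0.53 (SE 0.26, adjusted p = 0.432). None of the 9 genes was called between the experiments, where 117 of 11981 genes were (0.977%), a count that was between 0 and 10 when any 1 library was left out. DESeq2 called *Il13* (adjusted p = 0.0787) among 2353 genes (13.8%). Between the ILC2p experiments 0 of 9242 genes were called (0.0%), with 288 (3.12%) at an unadjusted p under 0.05, and *Il4*, *Csf2*, *Areg* and *Il13*, the 4 of the 9 genes tested there, were not called. Of the listed genes in LP ILC2s, *Il2rb*, the shared receptor chain of IL-2 and IL-15, was lower in experiment 2 (log2 fold change -1.20, adjusted p = 0.0815 by edgeR). So were *Irf1* (-1.15, adjusted p = 0.0781) and *Zc3h12a*, an RNase of cytokine mRNAs (-1.16, adjusted p = 0.0815). The epithelial genes *Krt8*, *Krt18*, *Krt19*, *Vil1* and *Muc2*, 5 of 8 tested, were called higher in experiment 2. *Il22*, the signature cytokine of ILC3s, stood at 430.5 and 164.8 CPM in WT and 163.4 and 210.8 in Tgfbr2-/- ILC2s of experiment 1, and at 12.93 and 1.735 CPM in WT and 109.5 in Tgfbr2-/- ILC2s of experiment 2, and it was not called between the experiments (adjusted p = 0.289).

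In BM ILC2p the same genes were low and irregular. Their summed level was 9.091 to 199.3 CPM, and between 1 and 6 of the 9 had more than 3 counts in a library. *Il9* had no read in any of the 8 libraries, which allows a level of up to 3 counts, or 0.07 to 0.308 CPM depending on the library (counting error only). *Il10* had 1 count in WT replicate 1 of experiment 2 and none elsewhere. *Il2* was seen only in the WT libraries of experiment 2, at 3.569 CPM (131 counts) and 2.509 CPM (107 counts), and *Il6* at 7.302 CPM (268 counts) in WT replicate 1 of experiment 2, with 1 count in Tgfbr2-/- replicate 1 of that experiment and none in the others. *Il5* had no read in the 4 libraries of experiment 1. In experiment 2 it had 5 and 396 counts (0.1362 and 9.285 CPM) in WT and 1341 and 3 counts (53.07 and 0.1035 CPM) in Tgfbr2-/- ILC2p, so replicates of a group differed by more than the groups. *Il13* was at 0.7754 CPM or less in experiment 1, and at 0.02724 and 0.891 CPM in WT and 4.789 and 5.14 in Tgfbr2-/- ILC2p of experiment 2.

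*Csf2*, *Il4* and *Areg* carried most of the counts in ILC2p, and all 3 were lower in each Tgfbr2-/- library than in any WT library of the same experiment. *Il4* stood at 73.4 and 31.02 CPM in WT and 8.23 and 0.0 in Tgfbr2-/- ILC2p of experiment 1, and at 65.22 and 31.11 CPM in WT and 20.94 and 0.3105 in Tgfbr2-/- ILC2p of experiment 2. *Areg* stood at 32.31 and 19.94 CPM in WT and had no read in both Tgfbr2-/- libraries of experiment 1, and stood at 34.71 and 42.79 CPM in WT and 11.04 and 0.2415 in Tgfbr2-/- ILC2p of experiment 2. *Csf2* stood at 92.79 and 81.21 CPM in WT and 0.8613 and 68.92 in Tgfbr2-/- ILC2p of experiment 1, and at 31.19 and 53.65 CPM in WT and 20.78 and 20.56 in Tgfbr2-/- ILC2p of experiment 2. For each gene the WT libraries differed by less than a factor of 3, and the lowest Tgfbr2-/- library was under 1 CPM. The highest Tgfbr2-/- library lay within the range of all WT libraries for *Csf2*, at 68.92 CPM. For *Il4* it was at 20.94 CPM against 31.02 in the lowest WT library, and for *Areg* at 11.04 against 19.94 CPM. Among all genes tested, 6.26% were lower in this way. The exact permutation of genotype within experiments gave p = 0.0556 (two-sided) for each of the 3, the smallest value that 36 arrangements allow. *Il4* and *Areg* passed the filter on low counts only with the WT libraries. The filter itself favoured that direction for them, so no conclusion is drawn from them beside that share.

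None of the 9 genes was called between the ILC2p genotypes. Only *Il4*, *Areg*, *Csf2* and *Il13* passed the filter, and of 9242 genes tested 321 were called (3.47%), 80 of them lower in Tgfbr2-/- ILC2p (0.866%). The log2 fold change was -6.16 for *Areg* (SE 2.91, adjusted p = 0.581 by edgeR), -2.92 for *Il4* (SE 1.92, adjusted p = 0.796), -1.18 for *Csf2* (SE 1.23, adjusted p = 0.905) and 0.07 for *Il13* (SE 13.52). The direction of *Il13* is undetermined, since it ran from -2.62 to 3.16 with 1 library left out. Leaving out 1 library moved the values of the other genes to between -9.01 and -4.25 for *Areg*, -4.79 and -2.38 for *Il4* and -2.46 and -0.74 for *Csf2*, with no call. The largest were without Tgfbr2-/- replicate 1 of experiment 2 for *Areg* and *Il4* and without Tgfbr2-/- replicate 2 of experiment 1 for *Csf2*. DESeq2 called *Areg* (adjusted p = 0.00446) among 2018 genes (16.7%), and neither *Il4* (adjusted p = 0.251) nor *Csf2* (adjusted p = 0.67). Without the 4 libraries that miss more than 8% of commonly expressed genes, 3 WT libraries and 1 Tgfbr2-/- library remain. There *Areg* was at -1.83 (SE 1.35, adjusted p = 0.596), *Il4* at -1.23 (SE 1.15, adjusted p = 0.654) and *Csf2* at -1.05 (SE 0.93, adjusted p = 0.643), and the lone Tgfbr2-/- library was assumed to vary like the WT libraries.

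**Figure D4:**
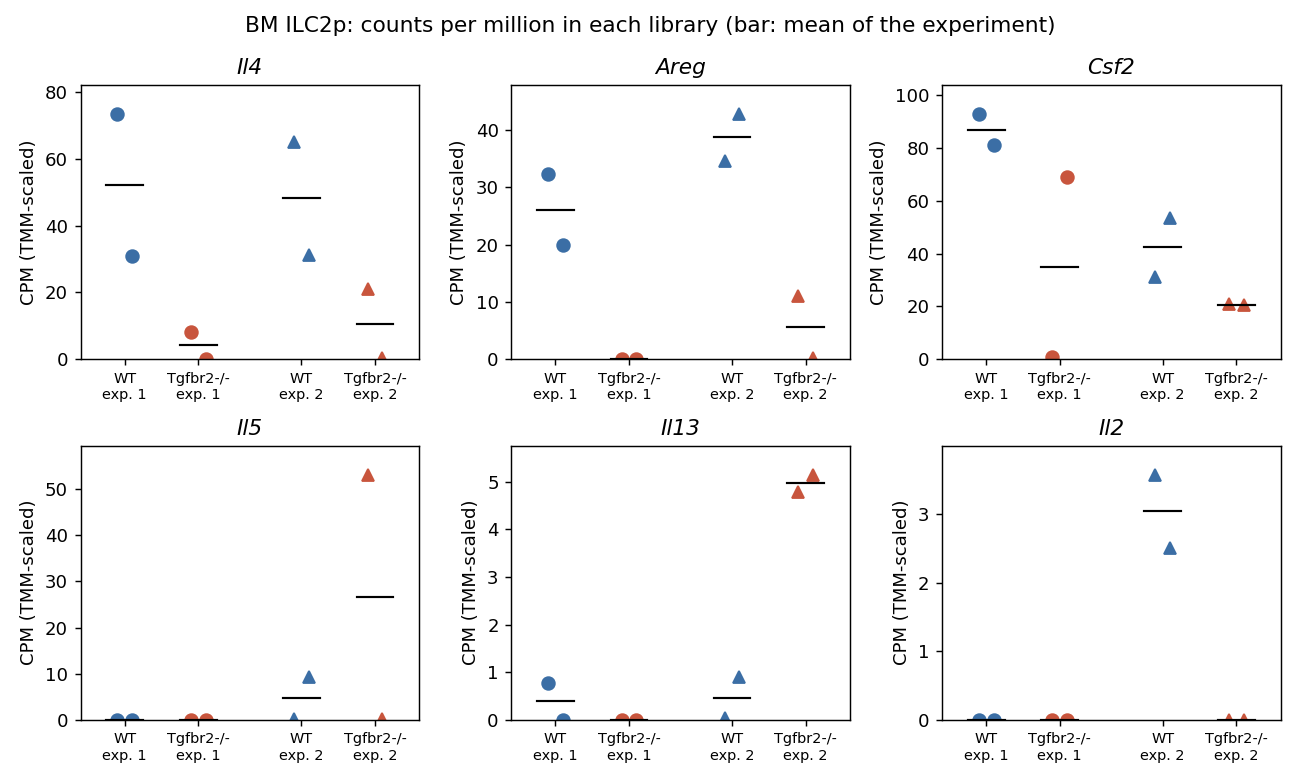
CPM of *Il4*, *Areg*, *Csf2*, *Il5*, *Il13* and *Il2* in each BM ILC2p library, by genotype and experiment, with symbols for libraries and bars for the mean of a genotype in an experiment. *Il4*, *Areg* and *Csf2* lie lower in the Tgfbr2-/- libraries of both experiments, while 1 library, at 53.07 CPM, holds most of the *Il5* counts.

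The ILC2p genotypes also differed in transcripts known from other cells. The study's lineage antibodies include CD11b and Gr-1, so cells carrying these were meant to be left out of the Lin- sort. Of 12 macrophage and neutrophil markers, which hold granule genes of developing neutrophils, the summed level was 779.2 to 1522 CPM in the 4 WT libraries and 78740 to 97620 CPM in the 4 Tgfbr2-/- libraries. *S100a8*, the most abundant, rose from 87.85 to 24350 CPM on average (log2 fold change 8.20, SE 0.40, adjusted p = 1.08e-05 by edgeR), and 8 of 10 tested genes of the list rose, among them *Ngp*, *Lyz2*, *Mpo* and *Camp*, where 2.61% of all genes were called higher. Of 12 mast cell and basophil markers the sum was 117.6 to 289.7 CPM in WT and 2063 to 2771 CPM in Tgfbr2-/- ILC2p, and 5 of 6 tested genes rose. They were *Prss34*, *Mcpt8*, *Fcer1a*, *Gata2* and *Hdc*, of which *Prss34* and *Mcpt8* encode basophil proteases. *Cpa3*, the other tested gene, was at 179.5 CPM in WT and 176.0 in Tgfbr2-/- ILC2p (log2 fold change -0.02, SE 0.49). The mast cell protease genes *Mcpt1*, *Mcpt2*, *Mcpt4*, *Tpsb2* and *Tpsab1* had no read in any ILC2p library. *Ms4a2*, also on the list, was at 0.07916 CPM or less. Eosinophil markers summed to 0.3342 to 6.002 CPM in WT and 14.21 to 377.6 CPM in Tgfbr2-/- ILC2p. Both tested genes, *Ear1* and *Ear2*, rose. With 1 of the 8 libraries left out in turn, the call was kept in 1 case for *Ear1*, 0 for *Ear2* and 2 for *Gata2*. *Mcpt8*, *Fcer1a*, *Gata2*, *Ear1*, *Ear2* and the myeloid gene *Itgam*, at 1.107 CPM or less on average in WT, passed the filter only with the Tgfbr2-/- libraries. The filter itself favoured that direction for them, so their calls are not evidence beside the 2.61%. Without the 4 uneven ILC2p libraries, 7 of the 8 myeloid genes (not *Mpo*), 1 of the 5 mast cell and basophil genes (*Prss34*) and 0 of the 2 eosinophil genes were called, where 0.202% of 12388 genes were called higher. Of the B and plasma cell markers, *Igj* was at 554.3 and 517.7 CPM in Tgfbr2-/- replicate 1 of experiments 1 and 2. In the other ILC2p libraries it was at 5.698 CPM or less. ILC2 markers summed to 6722 to 9467 CPM in WT and 2885 to 3865 CPM in Tgfbr2-/- ILC2p. Basophils are known to express *Il4*. The part of these cells, and of the missing genes, in the lower *Il4*, *Areg* and *Csf2* was not tested.

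**Figure D5:**
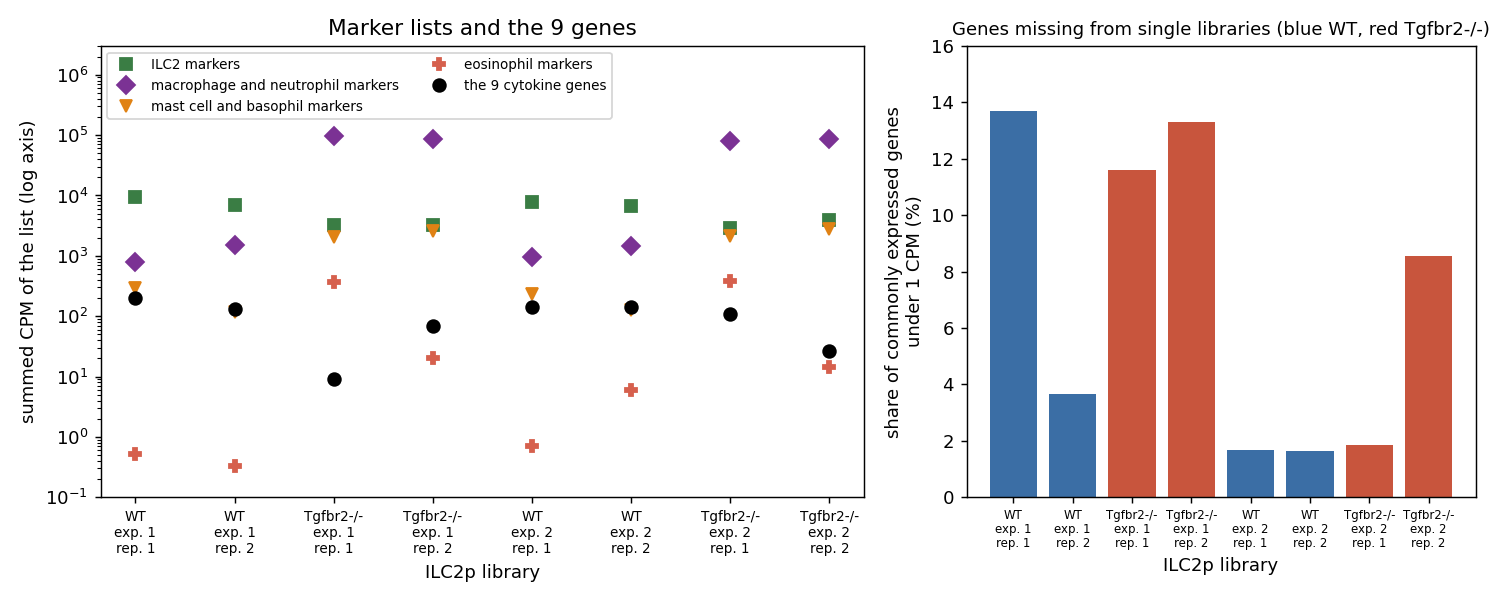
Left, summed CPM (log axis) of marker lists and of the 9 cytokine genes in each ILC2p library, and right, the share of commonly expressed genes under 1 CPM in each library (bars from 0, blue WT and red Tgfbr2-/-). Macrophage and neutrophil markers lie at 78740 CPM or more in the 4 Tgfbr2-/- libraries and at 1522 CPM or less in the 4 WT libraries, and the shares of missing genes run from 1.64% to 13.7%.

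Of 67 tested genes of cytokine control, 7 were called lower and 4 higher in Tgfbr2-/- ILC2p, where 0.866% of all genes were called lower and 2.61% higher. Without the 4 uneven libraries, which leaves 1 Tgfbr2-/- library, none of these 11 was called (adjusted p = 0.224 to 0.483 by edgeR) although each kept its direction, and 0 of 12388 genes were called lower (0.0%). There the log2 fold change was -1.75 for *Il1rl1*, -1.62 for *Gata3*, -1.47 for *Junb*, -0.90 for *Fos*, -1.42 for *Zfp36l1*, -7.08 for *Il9r*, -7.48 for *Il10ra* and 1.99 for *Osm*, while *Csf2ra* went from 5.99 to 3.26, *Csf2rb* from 6.37 to 3.38 and *Il13ra1* from 8.24 to 6.94. In the fit over all 8 libraries *Il1rl1* fell from 1035 to 269.3 CPM (log2 fold change -1.96, SE 0.22, adjusted p = 0.00156 by edgeR) and was the only one called of 13 tested driving receptors, whose median was -0.94 against -0.10 for all genes. Of 15 tested transcription factors 3 fell, namely *Gata3* (-1.41, adjusted p = 0.0603), *Junb* (-1.15, adjusted p = 0.0269) and *Fos* (-0.85, adjusted p = 0.0194), and the median was -0.70. The median of 11 tested ILC2 markers, a list that shares *Gata3* and *Il1rl1* with these, was -1.06, and none of them was fitted higher. *Zfp36l1* fell by 1.15 on the log2 scale (adjusted p = 0.00907) among 9 tested decay regulators. Of 13 tested receptors for the cytokines, *Il9r* fell from 46.36 to 0.3371 CPM (adjusted p = 0.0801) and *Il10ra* from 71.85 to 0.3338 CPM (adjusted p = 0.0278). The GM-CSF receptor genes *Csf2ra*, from 9.624 to 344 CPM (adjusted p = 0.0861), and *Csf2rb* (adjusted p = 0.0839) rose. So did the IL-13 receptor gene *Il13ra1* (adjusted p = 0.0269). *Il9r* and *Il10ra* passed the filter only with the WT libraries. *Il13ra1*, at 0.1815 CPM on average in WT, passed it only with the Tgfbr2-/- libraries. The calls of *Il9r*, *Il10ra* and *Il13ra1* are therefore not evidence beside the shares of all genes. With 1 of the 8 libraries left out in turn, the call was kept in 0 cases for *Il9r*, 2 for *Gata3* and *Csf2rb*, 3 for *Csf2ra*, 6 for *Il10ra* and *Il13ra1* and 7 for *Junb*, and in all 8 for *Il1rl1*, *Fos*, *Zfp36l1* and *Osm*. Myeloid cells are known to express *Csf2ra*, *Csf2rb* and *Il13ra1*, and the part of these cells was not tested. Of 11 tested other cytokines 1 was called, *Osm* (oncostatin M), which rose from 136.7 to 487.7 CPM (adjusted p = 0.0187). None of 6 tested locus neighbours was called.

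The 2 cell types were compared within each genotype, in 1 fit over all 15 libraries. Cell type, tissue, mouse model and experiment change together here and cannot be told apart. In WT libraries *Il4*, *Il13*, *Csf2* and *Areg*, the 4 genes that also passed the filter in ILC2p alone, were fitted higher in LP ILC2s than in ILC2p. *Il5*, *Il2*, *Il6* and *Il10* were fitted higher too, but they passed the filter only with the ILC2 libraries. The filter itself favoured that direction for them, so no conclusion is drawn from it. *Il4*, *Il5*, *Il13*, *Csf2*, *Areg* and *Il2* were higher in every ILC2 library than in every ILC2p library of that genotype. Of all genes, 49.2% were fitted higher and 6.63% higher without overlap. Only *Csf2* was called, with a log2 fold change of 3.53 (SE 0.78, adjusted p = 0.0365 by edgeR), where 1.65% of 12806 genes were called higher in ILC2s. This call was lost without ILC2p WT replicate 2 of experiment 1 (3.52, adjusted p = 0.109) or without ILC2p WT replicate 1 of experiment 2 (3.30, adjusted p = 0.114). DESeq2 also called *Il13* (adjusted p = 0.00105), *Il2* (adjusted p = 0.0537) and *Il5* (adjusted p = 0.0571), where it called 8.67% of 12767 genes in either direction. The fit with experiment within cell type called *Il2* (adjusted p = 0.0425) and *Il5* (adjusted p = 0.0554). The share of all genes called by that fit is not given here for either genotype. *Il6*, at 2.83 (adjusted p = 0.728), was called (adjusted p = 0.0297) without ILC2p WT replicate 1 of experiment 2, the WT ILC2p library that holds all 268 of their *Il6* counts, and *Areg* was called without ILC2p Tgfbr2-/- replicate 1 of experiment 2 (3.06, adjusted p = 0.0172). Mean RPKM were 820.0 and 72.25 for *Csf2* (11.4 times), 374.6 and 93.85 for *Il4* (3.99 times), 257.7 and 31.69 for *Areg* (8.13 times), 103.5 and 1.956 for *Il5* (52.9 times, resting on 396 counts in ILC2p WT replicate 2 of experiment 2), 24.85 and 0.4025 for *Il13* (61.7 times) and 27.86 and 1.95 for *Il2* (14.3 times). The fitted log2 fold change of *Il5* was 5.86 (adjusted p = 0.278) and became 11.09 (adjusted p = 0.0987) without that library, whose removal left a mean of 0.03438 RPKM in WT ILC2p. That of *Il2* was 3.91 and became 4.76 without ILC2p WT replicate 1 of experiment 2, and that of *Il13* was 5.98 and became 6.68 without replicate 2 of that experiment. Without the 4 ILC2p libraries that miss many genes, 5 of the genes were called, where 3.1% of 14779 genes were called higher in ILC2s. They were *Csf2* (3.78, adjusted p = 0.000238), *Areg* (3.07, adjusted p = 0.000386), *Il4* (2.35, adjusted p = 0.00255), *Il13* (6.43, adjusted p = 0.0532) and *Il5* (5.46, adjusted p = 0.0815).

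In Tgfbr2-/- libraries *Csf2* (log2 fold change 4.04, SE 0.82, adjusted p = 0.00966 by edgeR), *Il2* (12.03, adjusted p = 0.0172), *Areg* (6.43, SE 1.45, adjusted p = 0.0175), *Il4* (4.84, SE 1.22, adjusted p = 0.0304) and *Il6* (9.30, adjusted p = 0.0525) were called higher in ILC2s, where 8.21% of all genes were. *Il2* and *Il6* passed the filter only with the ILC2 libraries, so their calls are not evidence beside that share. Their fold changes have at most 1 count below them in Tgfbr2-/- ILC2p. Against a floor of 3 counts per library the RPKM of *Il2* and *Il6* were at least 135-fold and at least 64.9-fold higher in ILC2s. The call of *Il6* was lost without ILC2 Tgfbr2-/- replicate 1 or replicate 2 of experiment 1 or ILC2p Tgfbr2-/- replicate 2 of experiment 2, and without the 4 uneven ILC2p libraries (7.89, SE 4.24, adjusted p = 0.316). Without ILC2p Tgfbr2-/- replicate 1 of experiment 2 *Areg* came to 11.04 and *Il4* to 6.26, without Tgfbr2-/- replicate 2 of experiment 1 *Csf2* came to 4.94, and without the 4 uneven libraries *Areg* came to 4.42, *Il4* to 3.26 and *Csf2* to 4.35, all called. *Il13* (2.75, adjusted p = 0.441) and *Il5* (1.98, adjusted p = 0.696) were not called, and the value of *Il5* was 9.93 (adjusted p = 0.0252) without the ILC2p library at 53.07 CPM. The fit with experiment within cell type called *Il5* (6.76, adjusted p = 0.0586) and *Il10* (adjusted p = 0.0869). *Il4*, *Il13*, *Csf2* and *Areg* were thus fitted higher in ILC2s in both genotypes, in Tgfbr2-/- libraries beside 48.8% of all genes. So were *Il5*, *Il2*, *Il6* and *Il10*, which passed the filter only with the ILC2 libraries and are not counted beside that share. *Il5* in Tgfbr2-/- libraries came to -0.07 without the 4 uneven ILC2p libraries.

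Genes of cytokine control differed between the cell types in both directions. Of all genes, 0.711% were called lower in ILC2s in WT libraries and 3.44% in Tgfbr2-/- libraries. In WT libraries *Il1rl1* was lower in ILC2s than in ILC2p (log2 fold change -2.72, SE 0.33, adjusted p = 0.000211 by edgeR), while *Il17rb* (1.24, adjusted p = 0.00913) and *Nmur1* (1.31, adjusted p = 0.0886) were higher, so the receptors for IL-33 and IL-25 ran in opposite directions. Of the transcription factors *Rora* (1.86, adjusted p = 0.0215) and *Irf4* (7.99, adjusted p = 0.0869) were higher in ILC2s, and of the decay regulators *Zfp36* was lower (-0.88, adjusted p = 0.00528) and *Zfp36l1* higher (0.67, adjusted p = 0.0845). Among other cytokines *Il22* (adjusted p = 0.0138) and *Il17a* (adjusted p = 0.0843) were higher in ILC2s and *Ltb* (-1.27, adjusted p = 0.014) and *Ccl5* (-2.71, adjusted p = 0.0388) lower. *Il22* had no read in any ILC2p library. *Irf4*, *Il22* and *Il17a* passed the filter only with the ILC2 libraries, so no conclusion is drawn from their calls. With 1 of the 15 libraries left out in turn, the calls of *Nmur1*, *Irf4* and *Il17a* were kept in 5 cases each, that of *Zfp36l1* in 7, that of *Ccl5* in 12 and that of *Rora* in 14. In Tgfbr2-/- libraries *Gata3* (1.35), *Rora* (2.91), *Junb* (1.31), *Fos* (0.60) and *Ets1* (1.68) were called higher in ILC2s, 5 of 17 transcription factors where 8.21% of all genes were, and *Il1rl1* (-2.39) was again lower. The call of *Fos* was kept in 10 of the 15 cases with 1 library left out and was lost without the 4 uneven libraries (0.65, adjusted p = 0.15), and the other 4 factors and *Il1rl1* were called in each of these fits. Myeloid markers were called lower in ILC2s in both genotypes, for example *Mpo* in WT libraries, listed at 0.0 RPKM in ILC2s and at a mean of 344.1 RPKM in ILC2p. *Mpo* and the other myeloid markers except *Lyz2* passed the filter only with the ILC2p libraries, so no conclusion is drawn from their calls.

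Whether the genotype effect differed between the cell types was tested as an interaction. None of the 9 genes was called, where 127 of 12806 genes were (0.992%). For *Areg* the log2 fold change of Tgfbr2-/- against WT was more positive in ILC2s than in ILC2p by 5.13 (SE 1.88, adjusted p = 0.271 by edgeR), beside a median of 0.31 over all genes. *Il2* had a log2 fold change of 0.04 in ILC2s and no read in any Tgfbr2-/- ILC2p library, so its fitted difference (adjusted p = 0.141) is given no size. *Areg* was called by DESeq2 (adjusted p = 0.0229), without the filter on low counts (5.12, adjusted p = 0.031), without the 4 uneven ILC2p libraries (1.61, adjusted p = 0.0771) and without ILC2p Tgfbr2-/- replicate 1 of experiment 2 (8.25, adjusted p = 0.00226). DESeq2 called 11.6% of all genes and the fit without the 4 uneven libraries 7.69%. *Il2* was called by DESeq2 (adjusted p = 0.0142) and without ILC2p WT replicate 1 of experiment 1 (adjusted p = 0.0799 by edgeR). These calls of *Il2* rest on a group with no read, and the gene passed the filter only with the ILC2 libraries. No conclusion is drawn from them. *Csf2* differed by 0.46 (adjusted p = 0.979) and *Il4* by 2.92 (adjusted p = 0.551). *Il5* at -3.60 (SE 2.46, adjusted p = 0.674) and *Il13* at -0.99 (SE 3.7, adjusted p = 1.0) were fitted in the other direction, but neither direction held. With 1 library left out *Il5* ran from -8.35 to 3.82 and *Il13* from -4.08 to 1.41. *Il6* (adjusted p = 0.44) and *Il10* (adjusted p = 0.692) had at most 1 count in Tgfbr2-/- ILC2p, so no size is given. Among listed genes *Il9r* (6.35, SE 0.94, adjusted p = 0.00904), *Il10ra* (7.56, adjusted p = 0.00941), *Zfp36l1* (0.84, adjusted p = 0.0702) and *Ltb* (1.33, adjusted p = 0.0952) had a more positive log2 fold change in ILC2s, and *Csf2ra* (-7.17, adjusted p = 0.0733) and *Osm* (-2.16, adjusted p = 0.0494) a more negative one. Each of these 6 was also called without the 4 uneven libraries. With 1 of the 15 libraries left out in turn, the call was kept in 14 cases for *Il9r* and *Il10ra*, 10 for *Osm*, 6 for *Zfp36l1* and *Csf2ra* and 5 for *Ltb*.

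The cytokine genes did not vary as 1 block over the 7 ILC2 libraries. On log2 CPM, *Il5* and *Csf2* had the highest Pearson r of the 21 pairs (0.79) and *Areg* and *Il2* the lowest (-0.73). The neighbours *Il4* and *Il13* had an r of -0.23 and *Il5* and *Il13* of 0.29. Among 8417 genes with a mean of at least 10 CPM, the genes most like *Il5* were *Itgb1* (r = 0.959), an integrin chain, *Eif4g2* (0.953), a translation factor, and *Pcmtd1* (0.95). Those most like *Csf2* were *Dkk3* (0.982), *Med7* (0.981) and *Zfp277* (0.977), and those most like *Il13* were *Fbxo31* (0.978), *Arhgef1* (0.967) and *Dnajc25* (0.963). For *Il4* they were *Snx1* (0.958), *Tpr* (0.956) and *Ppp2r5e* (0.955), and for *Areg* *Polr2h* (0.965), *Nolc1* (0.962) and *Nup188* (0.955). For *Il6* they were *Clcc1* (0.949), *Mdp1* (0.948) and *Azi2* (0.928), and for *Il2* *Mtmr2* (0.952), *Rabgap1* (0.947) and *Ip6k1* (0.924). These values rest on 7 libraries that differ in genotype, experiment and depth, they are the highest of many, and they are given as a description.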

How the data were processed

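RNA-seq was analysed from LP ILC2s (7 libraries) and BM ILC2p (8 libraries). The authors mapped reads to mm9 with TopHat (up to 15 hits; the submitters' processing notes name Bowtie2) and counted them on UCSC RefSeq genes with the rpkmforgenes script over full transcripts, leaving out overlaps of genes. Strand is not given in the sources used here. The authors deposited raw counts per gene and, beside them, RPKM relative to the number of normalization reads in the file header. Each table holds 24690 entries, of which 205 join several genes.

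Counts were fitted here with edgeR 4.0.16 in R 4.3.3 (TMM scaling, filterByExpr, quasi-likelihood test, Benjamini-Hochberg adjustment), with genotype and experiment in the model in each cell type, and with the 4 groups of cell type and genotype over all 15 libraries. A gene was called at an adjusted p under 0.1 and a fold change over 1.5, as in the study's methods. CPM use the TMM factors of the cell type, and levels were compared between cell types by RPKM or in the joint fit. An SE is the log2 fold change divided by the square root of F. The genotype was permuted exactly within experiments on log2(CPM + 0.5), two-sided. Where all libraries of a group had at most 3 counts, a fold is a lower bound against 3 counts per library.

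The genes and lists were chosen with earlier results of these data known. Named are the 9 genes, *Tgfbr2*, a selection of the listed genes called in a comparison or otherwise up to 4 of the highest mean CPM, and the 3 genes most like each member of at least 10 CPM. Other listed genes were called but are not named, mainly between the cell types. Listed genes whose libraries did not overlap, and markers at 0, were named after their values were seen. Alternatives were DESeq2 1.42.0, library size scaling, no filter, a minimum of 10 counts per library, a fit without the experiment, each experiment alone, experiment within cell type, a replicate block and leaving out each library. Leaving out the 4 ILC2p libraries that miss over 8% of common genes was added after the data were seen. The fits were tested on simulated data. Positions are from GENCODE on NCBIM37, and promoter windows from RefSeq on GRCm38.p6, in which 8 of the 9 genes matched. Python 3.11.15, numpy 2.4.6, pandas 2.3.3, scipy 1.17.1 and matplotlib 3.10.9 were used.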

Additional observations from a re-analysis of the deposited data

Results flagged for a closer look

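In 8 of 23 groups of 4 libraries with a read, the highest library stood apart from the other 3 by more than Dixon's 95% limit, and chance flags about 1 group in 20 where values vary evenly. The 4 groups without a read could not be examined. *Il5* stood out in ILC2p WT replicate 2 of experiment 2, at 9.285 CPM, and in ILC2p Tgfbr2-/- replicate 1 of experiment 2, at 53.07 CPM. The same Tgfbr2-/- library stood out for *Areg*, at 11.04 CPM. *Il6* stood out in ILC2p WT replicate 1 of experiment 2, at 7.302 CPM. Among LP ILC2s, *Il9* stood out in WT replicate 2 of experiment 1, at 3.049 CPM, and *Il2* in WT replicate 1 of experiment 2, at 34.17 CPM. *Il6* in ILC2p Tgfbr2-/- replicate 1 of experiment 2 (0.03958 CPM) and *Il10* in ILC2p WT replicate 1 of experiment 2 (0.02724 CPM) stood out by a single count beside 3 libraries at 0.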

How the results depend on the processing

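Of the settings tried for the 9 genes, 655 kept the direction and the side of the threshold, 26 passed the threshold that the reported fit missed, 6 missed it and 30 turned the direction. Counts of called genes moved more. In LP ILC2s between the genotypes 953 genes were called with DESeq2 (798 higher, 155 lower) and 3 without the filter, against 0. In ILC2p between the genotypes 2018 were called with DESeq2 (955 higher, 1063 lower), 203 with at least 10 counts in every library, 38 in experiment 1 alone, 77 in experiment 2 alone and 25 without the 4 uneven libraries (25 higher, 0 lower), against 321 (241 higher, 80 lower). Between the cell types in WT libraries DESeq2 called 1107, at least 10 counts gave 94 and leaving out the uneven libraries 632, against 302, and in Tgfbr2-/- libraries DESeq2 called 2780, no filter gave 988 and at least 10 counts 415, against 1492. For the interaction DESeq2 called 2012, library size scaling gave 196, no filter 259 and leaving out the uneven libraries 1136, against 127. Between the ILC2 experiments DESeq2 called 2353, library size scaling gave 24, no filter 320 and at least 10 counts 66, against 117. Between the ILC2p experiments DESeq2 called 1562 and no filter gave 5, against 0, with 288 genes at an unadjusted p under 0.05. The cause was not tested. DESeq2 gave no adjusted p for *Il4* and *Areg* between the cell types.

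When single libraries were left out, the counts were 0 to 0 for the ILC2 genotypes, 179 to 319 for the ILC2p genotypes, 157 to 370 and 596 to 1904 for the cell types in WT and Tgfbr2-/- libraries, 14 to 407 for the interaction, 0 to 10 for the ILC2 experiments and 0 to 0 for the ILC2p experiments. The ILC2p count was lowest without WT replicate 1 of experiment 2, the interaction without the Tgfbr2-/- ILC2 library of experiment 2, and the Tgfbr2-/- cell type count without ILC2 Tgfbr2-/- replicate 2 of experiment 1. With a single library left in an arm, it was assumed to vary like the other groups.

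Within an experiment the replicate numbers did not pair WT with Tgfbr2-/- libraries. The correlation of same-numbered deviations was -0.06 in ILC2 experiment 1, -0.02 in ILC2p experiment 1 and -0.04 in ILC2p experiment 2. Pairing between experiments was not tested. In Tgfbr2-/- ILC2p replicates 1 and 2, *Igj* stood at 554.3 and 0.719 CPM in experiment 1 and at 517.7 and 0.8624 CPM in experiment 2. *Csf2* did not recur in this way (0.8613 and 68.92, then 20.78 and 20.56 CPM). If same-numbered ILC2p libraries share a source, the 8 libraries are not independent. With the replicate block 0 genes were called in ILC2s and 175 in ILC2p (155 higher, 20 lower), and no call of the 9 genes changed.

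The following directions turned. In the ILC2 genotype comparison *Il4* came to -0.02 without the covariate and -0.14 in experiment 2 alone, *Areg* to 0.07 in experiment 1 alone, *Il6* to 0.08 with library size scaling, 0.05 with at least 10 counts and 0.67 in experiment 1 alone, *Il2* to -0.01 without the covariate and *Il10* to -0.30 in experiment 2 alone. In ILC2p *Il13* came to -0.32 with DESeq2, -0.12 with library size scaling and -0.19 without the filter. In the Tgfbr2-/- cell type comparison *Il5* came to -0.07 without the uneven libraries, although 2 other settings called it higher. Without single libraries the values ran from -0.20 to 0.07 for *Areg*, -0.25 to 6.74 for *Il10*, -0.05 to 0.20 for *Il2*, -0.09 to 0.13 for *Il4* and -0.42 to 0.66 for *Il6* in ILC2s, from -2.62 to 3.16 for *Il13* in ILC2p, and from -4.08 to 1.41 for *Il13*, -8.35 to 3.82 for *Il5* and -1.45 to 8.0 for *Il6* in the interaction.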
